A study of Mus musculus with 9 samples.

Results

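Cholesterol synthesis and its regulators were described as a set of 28 genes, out of 49671 in the deposited count tables, in a mouse pancreatic cancer line with and without the collagen receptor CD49b. The members were taken by symbol from a fixed list: 18 enzymes along the route from acetyl-CoA to cholesterol, and 10 genes that sense, carry, retain or export sterols. The 10 are the SREBP2 gene Srebf2 with Scap, Insig1 and Insig2, the sterol carrier Stard4, the receptor ligase Mylip, the LXR receptors Nr1h2 and Nr1h3, and the efflux pumps Abca1 and Abcg1. All 28 had a single matching row in the tables.

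Cells make cholesterol from acetyl-CoA through mevalonate, farnesyl diphosphate, squalene and lanosterol. SREBP2, a membrane-bound transcription factor of the endoplasmic reticulum, is carried by SCAP to the Golgi and cut free when sterols are low, and it then switches on the enzymes and the genes of uptake. INSIG proteins hold SCAP back when sterols are plentiful. LXR receptors answer to oxysterols and switch on export through ABCA1 and ABCG1 and the ligase MYLIP, which marks lipoprotein receptors for degradation.

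The study compared the line KPCWT, with intact CD49b (integrin alpha 2, encoded by Itga2), with its knockout counterpart KPC49bKO, as cells in culture and as tumours. The 4 groups were KPCWT culture (WT culture, n = 2), KPC49bKO culture (KO culture, n = 2), KPCWT tumours (WT tumours, n = 3) and KPC49bKO tumours (KO tumours, n = 2, numbered 1 and 3 in the data columns). Cultured cells were kept in DMEM with 10% fetal bovine serum, itself a source of lipoprotein cholesterol, and harvested when most of the dish was covered. Tumours grew under the skin of syngeneic C57BL/6 mice, whose age the labels do not give, and were dissociated with enzymes before RNA was extracted. Each genotype is 1 line, and the labels do not say whether the knockout line is a clone, so the effect of CD49b and other differences between the 2 lines cannot be told apart. The labels give culture and tumours a batch tag each, and comparisons of genotype were therefore made within culture or within tumours. The labels call the replicates biological.

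Total counts per library ran from 16032912 to 21247023. Levels are given as CPM, a gene's count relative to the total of its library, with totals of all 9 libraries scaled together by TMM. Itga2 stood at 169 and 134 CPM in WT cultures, 98.1 and 104 in KO cultures, 118, 142 and 138 in WT tumours and 44.7 and 63.9 in KO tumours, and it was lower in KO in culture (log2 fold change -0.64, adjusted p = 0.0135) and in tumours (-1.32, 0.00602). These and all adjusted p-values below come from the quasi-likelihood test of edgeR with Benjamini-Hochberg adjustment over all genes tested, and a gene is called at an adjusted p under 0.05. Summed epithelial markers (Epcam, Krt8, Krt18, Krt19 and Cdh1) lay at 9523 to 10262 CPM in cultures, 4138 to 5273 in WT tumours and 7284 to 9144 in KO tumours. Within that list Epcam fell in KO culture (log2 fold change -6.53, adjusted p = 2.81e-05), Cdh1 rose (0.62, adjusted p = 0.0215), and Krt8 (-0.25) and Krt18 (0.30) were not called. In KO tumours Epcam was lower (-1.57, adjusted p = 0.0243), and Krt8 (0.97, 0.0149) and Krt19 (1.04, 0.0150) were higher. Summed fibroblast markers (7 genes, with 4 at 0 counts in WT culture and 3 in KO culture) lay at 0.0693 to 2.61 CPM in cultures, 1060 to 2974 in WT tumours and 390 to 614 in KO tumours. Tumour libraries thus hold host RNA, and in them fewer cells of a type and less RNA per cell cannot be told apart.

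Promoter sequence was available from RefSeq (build GRCm38.p6) for 23 of the 28 genes, of them 15 enzymes, as windows of 250 bases before to 50 after the annotated start. Each window was searched on both strands for the sterol regulatory element core TCACNCCAC, the NF-Y box CCAAT, the GC box GGGCGG, and the LXR element, an AGGTCA repeat with a spacer of 4 bases. SREBP2 is known to act together with NF-Y and Sp1, which bind the CCAAT and GC boxes. The promoter of Hmgcs1, which encodes the cytosolic HMG-CoA synthase, was the only member window with the sterol element core, starting 137 bases before the start on the gene's own strand. It is shown with Mvk, the mevalonate kinase gene, whose window held the most CCAAT boxes (5), and Ebp, the sterol isomerase gene and the only enzyme not called in culture. Mvk and Ebp were chosen after their values were seen. The 250 bases before each start are given 5′ to 3′ on the gene's strand, with the sterol element core and CCAAT boxes of either orientation in capitals (ATTGG is CCAAT on the other strand).
Hmgcs1 (chr13:119690101-119690350, plus strand): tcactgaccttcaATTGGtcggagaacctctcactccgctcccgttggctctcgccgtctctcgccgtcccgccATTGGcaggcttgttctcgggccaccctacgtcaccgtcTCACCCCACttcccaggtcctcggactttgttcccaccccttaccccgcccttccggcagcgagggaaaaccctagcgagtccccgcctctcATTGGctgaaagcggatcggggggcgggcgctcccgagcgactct
Mvk (chr5:114444019-114444268, plus strand): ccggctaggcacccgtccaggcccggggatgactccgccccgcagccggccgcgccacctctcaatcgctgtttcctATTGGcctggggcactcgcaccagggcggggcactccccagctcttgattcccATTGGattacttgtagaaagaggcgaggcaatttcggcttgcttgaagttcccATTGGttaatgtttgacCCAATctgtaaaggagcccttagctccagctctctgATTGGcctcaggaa
Ebp (chrX:8193513-8193762, minus strand): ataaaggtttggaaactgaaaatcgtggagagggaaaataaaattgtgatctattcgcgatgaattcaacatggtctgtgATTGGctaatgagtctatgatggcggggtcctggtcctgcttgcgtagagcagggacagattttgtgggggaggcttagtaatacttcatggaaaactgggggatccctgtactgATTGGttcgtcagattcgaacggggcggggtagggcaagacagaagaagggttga
In these sequences the core TCACCCCAC stands among 3 CCAAT boxes in Hmgcs1, and Ebp carries 2 CCAAT boxes without the core. A CCAAT box was found in the windows of 14 of 15 enzymes and 18 of 23 members, against 41.06% of 27025 genes with a window. The GC box was found in 14 of 15 enzymes and 20 of 23 members, against 38.2% of genes. The sterol element core was found in 1 of 23 members and 1.436% of genes, and the LXR element in 0 of 23 and 0.0148%. These are matches of letters within a short window, and elements with other letters or farther away were not searched.

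In culture the enzymes of cholesterol synthesis were lower in the knockout line along nearly the whole route. Of the 18 enzymes, 17 fell and 1 did not pass the test. Of the 26 members tested, 20 fell and 1 rose, whereas 16.2% of the 13573 genes tested fell and 9.27% rose. The median log2 fold change was -1.54 over the enzymes and -1.49 over the 26 members, against -0.00 over all genes tested. The 18 enzymes summed to 2756 and 3103 CPM in WT cultures and 1019 and 1069 CPM in KO cultures, 2.81-fold higher in WT. Every KO culture lay below every WT culture for 17 of the 18 enzymes, but the share of all genes with such an order was not counted. All 17 enzyme calls were also made in each of 11 alternative analyses, including each library left out in turn.

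**Figure D1:**
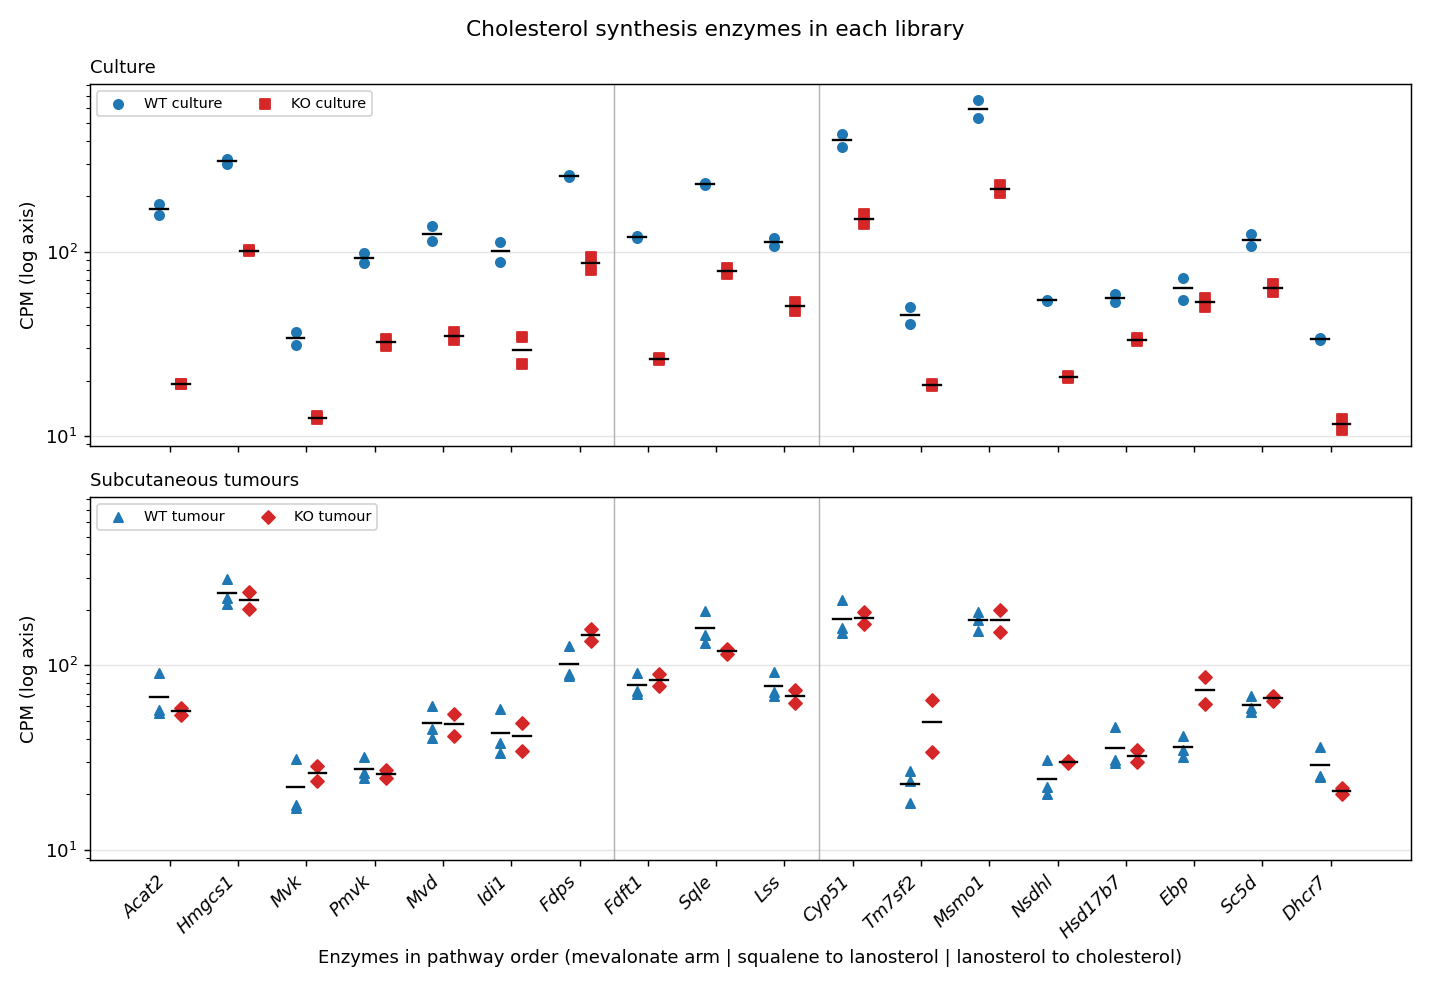
CPM (log axis) of the 18 cholesterol synthesis enzymes in pathway order, in the 4 culture libraries (upper panel) and the 5 tumour libraries (lower panel). Each point is a library, horizontal bars are group means, and vertical lines separate the arms of the pathway; KO cultures lie below WT cultures for 17 of 18 enzymes, while points of KO and WT tumours mix for most enzymes.

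The mevalonate arm fell as a whole, 7 of 7 enzymes, with log2 fold changes from -3.20 to -1.49. Acat2, the cytosolic thiolase that joins acetyl-CoA units at the head of the route (chr17:12942890-12960747 in GENCODE M21 on GRCm38, minus strand), stood at 158 and 181 CPM in WT cultures and 19.0 and 19.2 in KO cultures. Acat2 showed the largest change of the set, a 9.21-fold lower level in KO (log2 fold change -3.20, SE 0.17, adjusted p = 1.92e-07). Its paralog Acat3, the neighbouring gene, was counted at 4.77 and 4.93 CPM in WT and 1.92 and 2.01 in KO cultures and also fell (-1.35, adjusted p = 0.00609); how reads shared by the pair were counted is not given in the sources used here. Hmgcs1, whose promoter holds the sterol element core printed above (chr13:119690379-119708260, plus strand), stood at 299.7 and 319 CPM in WT and 103 and 100.4 in KO cultures. The decrease of Hmgcs1 was 3.16-fold (log2 fold change -1.66, SE 0.16, adjusted p = 8.79e-06).

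The kinases and the decarboxylase that turn mevalonate into isopentenyl diphosphate fell by similar amounts. Mvk stood at 31.3 and 36.7 CPM in WT and 12.8 and 12.3 in KO cultures, and Pmvk, the phosphomevalonate kinase, at 87.2 and 98.1 and 30.6 and 33.8. The decarboxylase gene Mvd went from 114 and 137 CPM to 33.4 and 36.6 (log2 fold change -1.90, SE 0.17). The 2 lines did not overlap for any of these genes. Idi1, the isomerase that makes dimethylallyl diphosphate, stood at 88.1 and 113 CPM in WT and 24.5 and 34.4 in KO (log2 fold change -1.82, SE 0.21). Fdps, the farnesyl diphosphate synthase at which the branch to prenyl groups leaves the route, stood at 254 and 261 CPM in WT and 93.3 and 79.7 in KO (log2 fold change -1.63, SE 0.16). Exons of Fdps share 1124 bases with the same-strand model Gm43738, and the handling of reads from such overlaps is not given in the sources used here.

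From farnesyl diphosphate to lanosterol, 3 of 3 enzymes fell. Fdft1, squalene synthase, the first enzyme committed to sterols, stood at 118 and 122 CPM in WT cultures and 25.9 and 26.7 in KO cultures, a 4.75-fold decrease (log2 fold change -2.25, SE 0.16, adjusted p = 1.22e-06). It was next to Acat2 in size of change, and replicates of each line lay within 4 CPM of each other. Fdft1 shares 774 exonic bases with Ctsb on the other strand, and whether counting used the strand is not given in the sources used here. Sqle, the squalene epoxidase, stood at 237 and 230.5 CPM in WT and 75.9 and 81.6 in KO (log2 fold change -1.62, SE 0.16). Lss, the cyclase that makes lanosterol, stood at 119 and 108 and 53.7 and 47.5 CPM (log2 fold change -1.22, SE 0.16).

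Between lanosterol and cholesterol 7 of 8 enzymes fell, with smaller changes at some late steps. Cyp51, the lanosterol demethylase, stood at 369 and 439 CPM in WT cultures and 142 and 159.6 in KO cultures. Msmo1, the methylsterol oxidase and the most abundant enzyme per kilobase of exon in WT culture (97.4 CPM per kb), went from 531 and 666 to 209 and 231 CPM. Nsdhl, which acts with Msmo1 in removing methyl groups, went from 54.0 and 55.0 to 20.7 and 21.3 CPM. The log2 fold changes of Cyp51 (-1.47, SE 0.17), Msmo1 (-1.50, SE 0.18) and Nsdhl (-1.43, SE 0.17) lay within 1 SE of each other. The sterol reductase genes Tm7sf2 (40.6 and 50.3 CPM in WT, 18.8 and 19.3 in KO) and Dhcr7 (33.3 and 34.0 and 12.4 and 10.8) fell as well, with log2 fold changes of -1.31 and -1.59.

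Smaller decreases were found for Hsd17b7, the ketosterol reductase, at 59.1 and 53.5 CPM in WT and 34.1 and 32.6 in KO cultures (log2 fold change -0.81, SE 0.17, adjusted p = 0.00348), and for the desaturase Sc5d, at 108 and 126 and 60.3 and 66.6 CPM (log2 fold change -0.93, SE 0.16, adjusted p = 0.00109). Ebp stood at 54.6 and 72.4 CPM in WT and 50.2 and 56.1 in KO cultures, so the lines overlapped (log2 fold change -0.31, SE 0.18, adjusted p = 0.244). With the replicate number as a block in edgeR, Ebp was called lower (-0.30, adjusted p = 0.00133). That fit called 7587 of all 13573 genes tested. The size of change thus differed along the route, from -3.20 at the first enzyme to -0.31 at Ebp, with no steady order between.

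**Figure D2:**
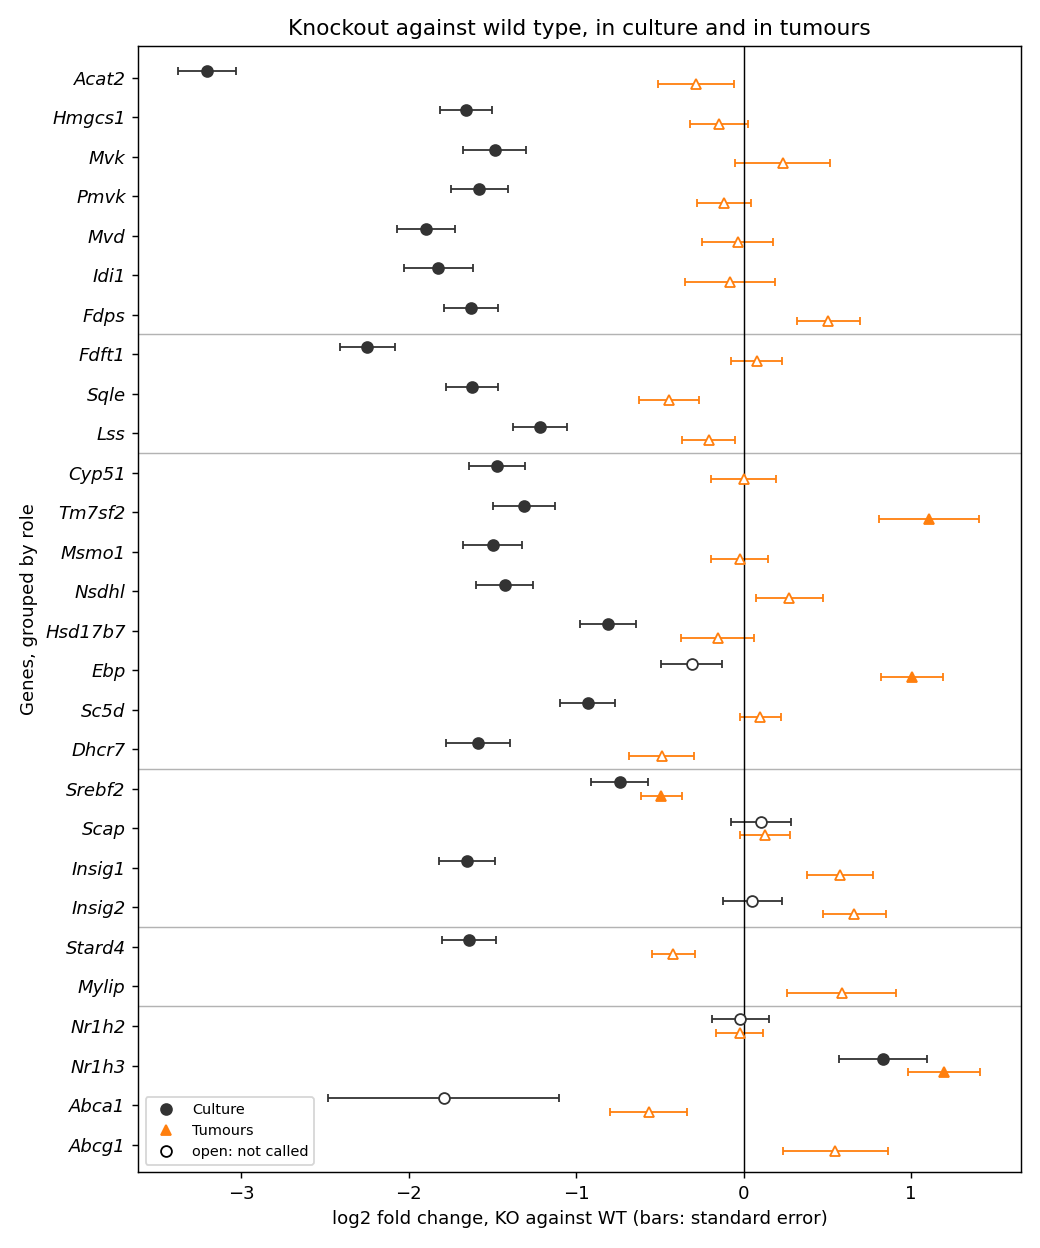
Log2 fold change of KO against WT (x axis; bars are the standard error) for the 28 genes grouped by role, in culture (circles) and in tumours (triangles), from edgeR. Filled symbols passed an adjusted p of 0.05; in culture 17 of 18 enzymes lie left of 0 and are filled, in tumours 2 enzymes, Tm7sf2 and Ebp, are filled and lie right of 0, and Mylip and Abcg1 have no culture value.

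In tumours no enzyme was called lower in the knockout. The edgeR test called 0 of 18 enzymes lower and 2 higher, with 2 lower and 3 higher at an unadjusted p under 0.05, and DESeq2 likewise called 0 lower and 2 higher. Over the 28 members, 1 fell and 3 rose, where 10.9% of the 16257 genes tested fell and 8.78% rose, and the median log2 fold change was -0.03 over the enzymes and -0.01 over all genes. The enzymes summed to 1304, 1251 and 1746 CPM in WT tumours and 1582 and 1359 CPM in KO tumours, which overlap. WT tumour 3 was the highest of the WT tumours for 18 of 18 enzymes, and it was also the one with the most fibroblast marker RNA (2974 CPM). Without WT tumour 3 the median over the enzymes was 0.14, again with 0 called lower and 2 higher.

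The enzymes that fell furthest in culture overlapped between the lines in tumours. Acat2 stood at 54.9, 57.1 and 90.4 CPM in WT tumours and 53.7 and 58.9 in KO tumours (log2 fold change -0.28, SE 0.22, adjusted p = 0.408). Fdft1 stood at 72.9, 69.8 and 90.7 and 89.7 and 77.3 CPM (log2 fold change 0.08, SE 0.15, adjusted p = 0.747), and Mvd at 44.9, 40.1 and 60.1 and 54.7 and 41.1 CPM (-0.04, SE 0.21). WT tumour 3 had the highest value of all tumours for each of these 3 genes. Hmgcs1 stood at 231, 216 and 294 CPM in WT tumours and 249 and 204 in KO tumours (log2 fold change -0.15, SE 0.17). Every KO tumour lay below every WT tumour for 2 enzymes, and the share of all genes with this order was not counted. They were Sqle (147, 133 and 198 CPM in WT against 115 and 123 in KO) and Dhcr7 (25.2, 24.9 and 35.9 against 20.0 and 21.6). Neither passed the test (adjusted p = 0.128 and 0.124). Fdps lay higher in both KO tumours (158 and 136 CPM) than in any WT tumour (89.8, 88.0 and 128 CPM) without passing it (adjusted p = 0.104); without WT tumour 3 it was called, at a log2 fold change of 0.67 (adjusted p = 0.0276).

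The 2 of 18 enzymes called higher in KO tumours were Ebp and Tm7sf2, where 8.78% of all genes tested were called higher. Ebp stood at 31.9, 34.9 and 41.6 CPM in WT tumours and 85.9 and 61.4 in KO tumours, a 2.01-fold higher level (log2 fold change 1.01, SE 0.19, adjusted p = 0.0149). Tm7sf2, which fell in KO culture, stood at 23.4, 17.8 and 26.6 CPM in WT tumours and 65.2 and 33.7 in KO tumours (log2 fold change 1.11, SE 0.30, adjusted p = 0.0455). Its 2 KO tumours differed by more than the WT tumours did, and 532 exonic bases are shared with the same-strand neighbour Vps51. The call of Ebp was lost without WT tumour 1 (adjusted p = 0.0558) or WT tumour 2 (0.0609), and with the replicate number as a block (0.0719). That of Tm7sf2 was lost without KO tumour 1 (log2 fold change 0.55), and without WT tumour 1 (adjusted p = 0.111), 2 (0.133) or 3 (0.0748). The Tm7sf2 call was also lost with the block (adjusted p = 0.131) and under scaling by library totals (0.0537).

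The difference between the effect of the knockout in tumours and that in culture was tested directly, as the interaction of genotype and setting over all 9 libraries. The log2 fold change of KO against WT was called higher in tumours, that is less negative or positive, for 17 of 18 enzymes. By edgeR and by DESeq2 0 were called lower, and at an unadjusted p under 0.05 there were 18 higher and 0 lower. Over the 28 members 20 were called higher and 0 lower, whereas 4.15% of the 16793 genes tested were called higher and 1.54% lower. The median difference was 1.47 over the enzymes and 0.05 over all genes tested on the log2 scale. The largest differences among enzymes were those of Acat2 (2.90, SE 0.30, adjusted p = 0.00100), Tm7sf2 (2.39, SE 0.38, adjusted p = 0.00575) and Fdft1 (2.30, SE 0.22, adjusted p = 0.000689). Hsd17b7 was the enzyme not called (0.63, SE 0.28, adjusted p = 0.234); without WT tumour 3 it was (0.88, adjusted p = 0.0370).

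The count of members called for the difference changed with the library left out. It was 10 without KO culture 1, 13 without KO culture 2, 11 without WT culture 2 and 14 without WT tumour 1 or WT tumour 2. It was 16 without WT culture 1, and 18 to 21 without WT tumour 3 or either KO tumour. The 10 members called in each of 14 alternatives were Acat2, Hmgcs1, Pmvk, Mvd, Fdps, Fdft1, Tm7sf2, Nsdhl, Insig1 and Stard4. The value lay above 0 for each of the 18 enzymes in every one of these alternatives. Calls of Dhcr7, Lss, Ebp, Sc5d, Sqle, Mvk, Idi1, Cyp51, Msmo1 and Abcg1 were lost in at least 1 of them.

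**Figure D3:**
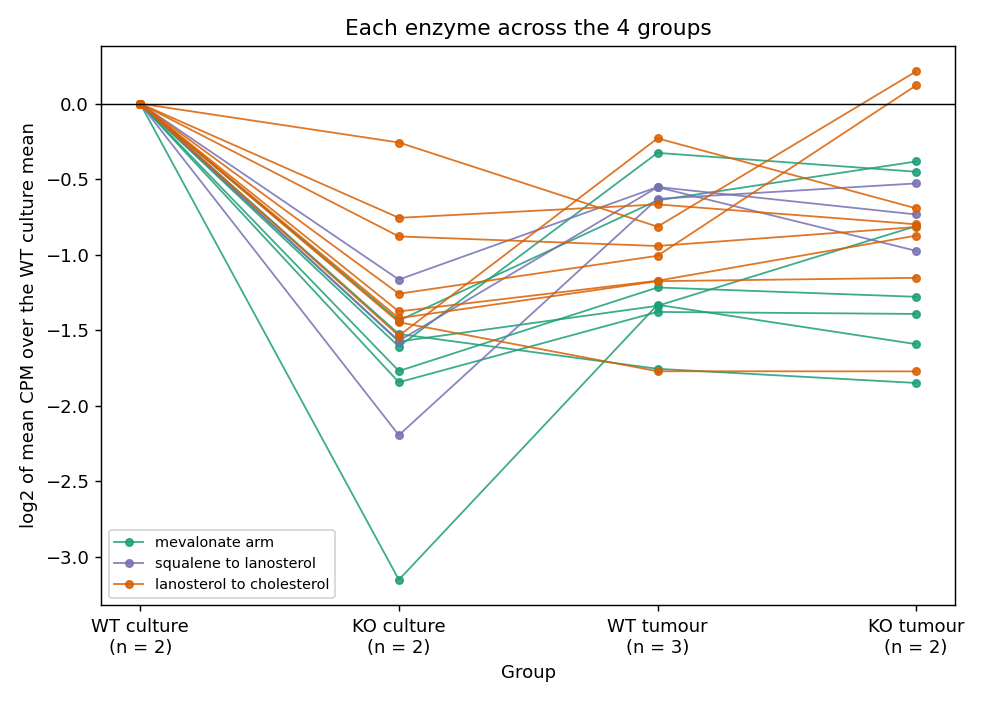
Mean CPM of each of the 18 enzymes in the 4 groups, as log2 of the ratio to its WT culture mean (y axis), with 1 line per enzyme coloured by arm; the lines join group means and show no course in time. KO culture lies below WT culture for each enzyme, Acat2 lowest, and in KO tumours 2 enzymes, Ebp and Tm7sf2, lie above their WT culture mean.

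Between settings, most enzymes were lower in tumours than in culture in the WT line, whereas 10 were higher in tumours in the KO line. These values compare tumours with cultures, so growth in the mouse, host RNA, dissociation and the batch tag cannot be told apart in them, and they share libraries with the comparisons above. In the WT line 16 of 18 enzymes were lower in tumours than in culture and 0 higher, by edgeR (16 and 0 at an unadjusted p under 0.05; 15 and 0 by DESeq2), with a median log2 fold change of -0.97 against 0.17 over all genes. Over the 28 members 18 fell and 6 rose, where 29.6% of genes fell and 36.1% rose. In the KO line 10 of 18 enzymes were higher in tumours than in culture, with a median of 0.51 against 0.17 over all genes, and over the 28 members 17 rose and 1 fell, where 32.9% of genes rose and 26.4% fell.

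Scaling moved these cross-setting counts. Under scaling by library totals the median of all genes shifted to 0.64 in the WT line and 0.60 in the KO line, and the share of called genes that were lower went from 45.1% to 27.3% and from 44.5% to 25.6%. Then 9 enzymes were lower in WT tumours (median -0.49) and 15 higher in KO tumours (median 0.94). Under every one of the 14 alternatives, 9 enzymes stayed lower in WT tumours than in WT culture: Acat2, Pmvk, Mvd, Idi1, Fdps, Cyp51, Msmo1, Nsdhl and Sc5d. In the KO line the 6 enzymes higher in tumours under every alternative were Acat2, Hmgcs1, Mvk, Fdft1, Tm7sf2 and Dhcr7.

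The methylsterol oxidase gene Msmo1 was at 599 ± 95.6 CPM in WT culture and 175 ± 20.6 in WT tumours (mean ± SD, n = 2 and 3), a log2 fold change of -1.77 (SE 0.17, adjusted p = 9.07e-06), and at 219.7 ± 15.6 and 175 ± 34.6 in KO culture and tumours (-0.32, adjusted p = 0.158). Pmvk was lower in WT tumours than in WT culture (log2 fold change -1.75), at 92.7 ± 7.70 and 27.5 ± 3.89 CPM, and stood at 32.2 ± 2.25 and 25.7 ± 1.88 in KO culture and tumours. Fdft1 went down in the WT line (-0.62, adjusted p = 0.00274) and up in the KO line (1.68, adjusted p = 1.74e-05); its decrease in the WT line was not called under scaling by library totals (-0.15). Acat2 likewise fell in the WT line (-1.33) and rose in the KO line (1.57, adjusted p = 0.000195), reaching 56.3 ± 3.70 CPM in KO tumours, still below the 169.8 ± 16.1 CPM of WT cultures. Per kilobase of exon the most abundant enzyme was Msmo1 in both cultures (97.4 CPM per kb in WT and 35.8 in KO), next to Cyp51 (91.4 and 34.2). In both kinds of tumour it was Hmgcs1 (53.8 CPM per kb in WT and 49.3 in KO). Dhcr7 had the lowest level of the enzymes in each group, from 1.99 to 5.78 CPM per kb.

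Among the 4 genes of SREBP2 control, Srebf2 and Insig1 fell in KO culture while Scap and Insig2 did not pass the test. Srebf2, itself a target of its product (chr15:82147181-82205379, plus strand), stood at 293 and 251 CPM in WT cultures, 188 and 149.8 in KO cultures, 443, 422 and 395 in WT tumours and 316 and 293 in KO tumours. KO libraries lay below WT libraries in each setting, and Srebf2 was the only member called lower in both (culture: log2 fold change -0.74, SE 0.17, adjusted p = 0.00693; tumours: -0.49, SE 0.12, adjusted p = 0.0364). The difference between these effects of Srebf2 was not called ( 0.22, SE 0.21, adjusted p = 0.608). Its culture call was lost without KO culture 2 (log2 fold change -0.59, adjusted p = 0.119). Its tumour call was lost without KO tumour 1 (log2 fold change -0.55) or KO tumour 3 (-0.41). The same held without WT tumour 1 (adjusted p = 0.132) or WT tumour 2 (0.127), and with the replicate number as a block (0.153).

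Insig1, the retention protein whose gene SREBP2 itself switches on (chr5:28071363-28078662, plus strand), followed the enzymes in culture. WT cultures had 396 and 474 CPM and KO cultures 140.4 and 146 (log2 fold change -1.65, SE 0.17, adjusted p = 1.54e-05). Levels of Insig1 in tumours were 120.4, 96.9 and 125 CPM for WT and 138 and 209 for KO, both KO tumours above every WT tumour, without passing the test (0.58, adjusted p = 0.0842); it was called without KO tumour 1 (0.85, adjusted p = 0.0312) and by DESeq2 (adjusted p = 0.0442). The difference between settings was called (2.21, SE 0.28, adjusted p = 0.00236). Insig2, which does not depend on SREBP2 in the same way, stood at 113 and 132 CPM in WT cultures, 115 and 149 in KO cultures, 52.9, 53.8 and 48.7 in WT tumours and 99.9 and 66.8 in KO tumours. Insig2 was not called between lines in culture (adjusted p = 0.855) or in tumours (0.66, adjusted p = 0.0527), but was in tumours by DESeq2 (adjusted p = 0.0167) and without KO tumour 3 (0.95, adjusted p = 0.00691). Scap, the escort protein, lay at 55.1 and 47.2 and 63.9 and 50.3 CPM in the cultures and was not called between lines in either setting (adjusted p = 0.712 in culture and 0.570 in tumours).

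Stard4, a soluble sterol carrier and known SREBP2 target, fell with the enzymes in KO culture. Its levels were 191 and 191 CPM in WT cultures, 69.2 and 58.1 in KO cultures, 175, 164 and 192 in WT tumours and 143 and 126 in KO tumours, with no overlap between lines in either setting. The decrease in culture was 3.12-fold (log2 fold change -1.64, SE 0.16, adjusted p = 1.25e-05), while that in tumours (-0.42, SE 0.13) did not pass edgeR's test (adjusted p = 0.0623) and passed that of DESeq2 (adjusted p = 0.0258). The 2 effects differed by 1.19 (SE 0.19, adjusted p = 0.00634).

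**Figure D4:**
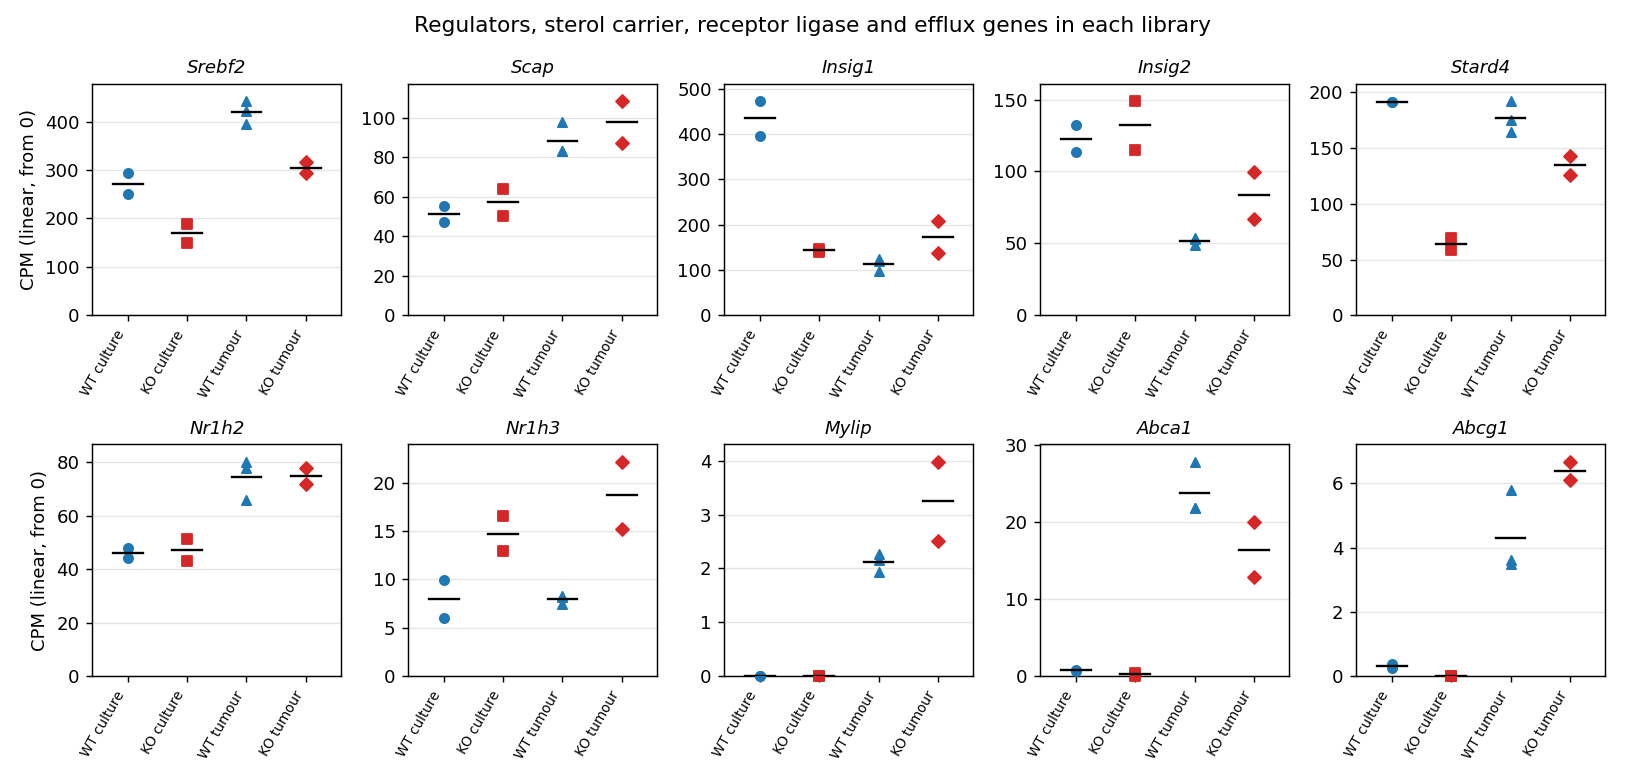
CPM (linear axes from 0, 1 scale per gene) of 10 regulators, carrier, ligase and efflux genes in each library, with points for libraries and bars for group means. Srebf2 is lower in KO within both settings, Insig1 is high in WT culture and Stard4 is low in KO culture. Mylip, Abca1 and Abcg1 are near 0 in cultures and present in tumours.

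Of the 4 LXR and efflux genes 3 were tested in culture, and edgeR called 1 higher and 0 lower in KO. Among all genes tested 9.27% rose and 16.2% fell. Of the 3, 1 was lower at an unadjusted p under 0.05 and 0 were lower by DESeq2. Nr1h3, which encodes LXR alpha (chr2:91184061-91202834, minus strand), was the member called higher in KO in both settings, at 6.04 and 9.92 CPM in WT cultures, 12.9 and 16.6 in KO cultures, 7.45, 8.30 and 8.18 in WT tumours and 15.2 and 22.2 in KO tumours. Every KO library lay above every WT library of its setting (culture: log2 fold change 0.83, SE 0.26, adjusted p = 0.0345; tumours: 1.20, SE 0.22, adjusted p = 0.0135). The culture call was lost without KO culture 2 (0.64, adjusted p = 0.0912) or WT culture 1 (0.52, adjusted p = 0.247), and the tumour call without WT tumour 1 (adjusted p = 0.0656) or 2 (0.0613). Nr1h2, which encodes LXR beta, differed little between lines, at 47.8 and 44.3 and 51.3 and 42.9 CPM in the cultures (log2 fold change -0.02, SE 0.17, adjusted p = 0.950) and -0.02 (SE 0.14) in tumours.

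Abca1, the pump that loads cholesterol onto apolipoproteins, was rare in culture and common in tumours. It had 23 counts in the WT cultures and 7 in the KO cultures, or 0.636 and 0.843 and 0.339 and 0.0693 CPM, and stood at 21.8, 27.9 and 21.8 CPM in WT tumours and 12.8 and 20.0 in KO tumours. Between lines it was not called in culture (-1.79, SE 0.69, adjusted p = 0.0773; with a replicate block -1.80, adjusted p = 0.0249, called lower) or in tumours (-0.57, adjusted p = 0.132); without KO tumour 3 it was lower in KO tumours (-0.89, adjusted p = 0.0399). Tumours exceeded cultures in the WT line by 5.01 (SE 0.38, adjusted p = 3.27e-06) and in the KO line by 6.22 (SE 0.46, adjusted p = 3.31e-06) on the log2 scale. Abcg1, which exports cholesterol to lipoprotein particles, had 10 counts in WT cultures and 0 in KO cultures. Set against a floor of 3 counts over the KO cultures, Abcg1 stood 3.44-fold higher in WT culture and 68.2-fold higher in KO tumours. These ratios leave out the counting error of the WT culture and KO tumour counts. Abcg1 was not tested between lines in culture. Its tumour levels were 3.60, 3.48 and 5.78 CPM for WT and 6.68 and 6.09 for KO, and Abcg1 was not called (0.55, adjusted p = 0.254).

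Mylip, the ligase for lipoprotein receptors, had 0 counts in the 4 cultures. Mylip was found at 2.16, 1.94 and 2.27 CPM in WT tumours and 2.52 and 3.99 in KO tumours. These levels were 22.1-fold and 35.2-fold above the floors of the WT and KO cultures. Between lines in tumours it was not called (0.59, SE 0.33, adjusted p = 0.247). Leukocyte RNA appears in the tumours with these genes: the 10 macrophage and monocyte markers, of which 5 had 0 counts in WT culture and 3 in KO culture, were tested between tumours and culture. In the WT line 8 were higher and 1 lower in tumours, where 36.1% of all genes tested were higher, and in the KO line 8 were higher and 2 lower, where 32.9% were higher. Mrc1 was lower in tumours of both lines, at 214 and 221 CPM in WT cultures and 34.6, 29.8 and 65.2 in WT tumours, and Cd14 was lower in the KO line, at 443 and 477 CPM in cultures and 182 and 189.8 in tumours. The part of host cells in the tumour levels of Abca1, Abcg1 and Mylip was not tested.

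Genes beside the set, from lists chosen by function, were read in the same fits. Of 7 further genes with promoters that answer to SREBP2, 5 fell in KO culture and none rose, where 16.2% of all genes tested fell and 9.27% rose (0 higher at an unadjusted p under 0.05 and 0 by DESeq2). They were the retinol dehydrogenase Rdh11 (-1.81, adjusted p = 8.19e-06), the acetyl-CoA synthetase Acss2 (-1.19, 0.000364), the cytochrome b5 reductase Cyb5r3 (-0.90, 0.000868), the sterol-regulated Tmem97 (-0.72, 0.00658) and the electron carrier Cyb5b. In tumours 0 of 7 were called by edgeR or DESeq2, with 1 lower and 1 higher at an unadjusted p under 0.05. The difference between settings was called for Rdh11 (1.88, adjusted p = 0.00288) and Acss2 (1.61, 0.00505).

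Genes of the SREBP processing machinery did not all change in the same direction in KO culture. The site 1 protease gene Mbtps1 fell (-0.55, adjusted p = 0.0192). The site 2 protease gene Mbtps2 (0.60, 0.0154) and Aup1, which encodes a protein of lipid droplets and the endoplasmic reticulum (0.62, 0.00926), rose. In tumours Mbtps1 (-0.63, 0.0485) and the ubiquitin ligase gene Rnf145 (-0.60, 0.0197) were lower and Aup1 was higher (0.60, 0.0144). Of 12 genes of the isoprenoid branches that leave the route at farnesyl diphosphate, such as the prenyl transferase subunit Fnta, 0 were called in culture by edgeR or DESeq2. Among all genes tested 16.2% fell and 9.27% rose. At an unadjusted p under 0.05 there was 1 higher, and the median log2 fold change was 0.12. In tumours only Fnta of the 12 was called (0.47, adjusted p = 0.0480), where 8.78% of all genes tested rose and 10.9% fell.

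Uptake and lysosomal genes fell in part: 6 of 12 were lower in KO culture by edgeR and 5 by DESeq2, against 16.2% of all genes tested. Among the 6 were the lipoprotein receptors Vldlr (-0.70, adjusted p = 0.00873) and Lrp8 (-0.84, 0.0182), the scavenger receptor Scarb1 (-0.57, 0.0331) and the late endosomal carrier Stard3 (-0.57, 0.0243), with Npc2 and Gramd1a. In tumours 3 were lower by edgeR and 4 by DESeq2, against 10.9% of all genes tested. The 3 were Vldlr (-3.41, SE 0.75, adjusted p = 0.0240), Stard3 (-0.80, 0.00634) and Gramd1a (-0.66, 0.0152), and the lysosomal lipase gene Lipa was higher (0.82, 0.0144). Among genes of esters and oxysterols, 4 of 6 were tested in culture: Cyp27a1, a sterol hydroxylase, fell (-1.68, adjusted p = 0.000295) and the ester hydrolase Nceh1 rose (0.71, 0.00626). In tumours Nceh1 was higher (1.21, 0.0108) and the esterifying enzyme Soat1 lower (-0.57, 0.0248).

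Further LXR targets split. Of 5 tested in KO culture, Pltp, the phospholipid transfer protein (-2.93, adjusted p = 8.33e-05), and the lipoprotein lipase gene Lpl (-1.75, 7.86e-05) fell and Smpdl3a rose (0.86, 0.0100). Among all genes tested 16.2% fell and 9.27% rose. Abcg5 and Abcg8 had too few counts. In tumours Smpdl3a was higher (1.33, 0.0152) and Arl4c lower (-1.33, 0.0105), where 8.78% of all genes tested rose and 10.9% fell. Fatty acid synthesis, which shares its acetyl-CoA supply with the sterol route, was also lower in part: 6 of 10 genes tested fell in KO culture, against 16.2% of all genes, led by the desaturase Fads2 (-2.00, adjusted p = 1.3e-05), the elongase Elovl6 (-1.41, 6.91e-05), the ATP citrate lyase Acly (-1.23, 0.000140) and Scd2 (-1.15, 0.000588). In tumours 3 of 10 fell, against 10.9% of all genes: Acly (-0.72, 0.0161), Acaca (-0.81, 0.0151) and Fasn (-0.73, 0.0323). For the difference between settings edgeR called 17 of 18 sterol enzymes. Of the 10 fatty acid genes it called 1, Fads2 (1.60, adjusted p = 0.00366), against 4.15% of all genes called higher. DESeq2 called 17 of the 18 enzymes and 3 of the 10 fatty acid genes higher. At an unadjusted p under 0.05 in edgeR, 4 fatty acid genes were higher and 1 lower. The counts of the 2 lists were not tested against each other.

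Other measures moved with the enzymes in culture. Of 14 proliferation genes 11 fell in KO culture, against 16.2% of all genes tested, among them Rrm2 (-1.50, adjusted p = 3.24e-05) and Top2a (-0.82, 0.00226), and the list summed to 2394 and 2531 CPM in WT and 1385 and 1553 CPM in KO cultures, 1.68-fold higher in WT. Mitochondrial genes took 4.72% and 3.39% of counts in WT cultures and 2.16% and 2.05% in KO cultures. The order was the other way in tumours, at 1.90%, 2.00% and 1.93% in WT and 3.33% and 2.69% in KO. In tumours the proliferation genes summed to 1670, 1616 and 2282 CPM in WT and 1001 and 2148 CPM in KO; WT tumour 3, the highest of the WT tumours for every enzyme, was also the highest of them here, and 1 of 14 genes, Mcm3, was called lower in KO (-0.94, adjusted p = 0.0267), against 10.9% of all genes. Fibroblast markers were lower in KO tumours for 4 of 7 genes, such as Col1a1 (-1.97, adjusted p = 0.0253), against 10.9% of all genes. T cell markers summed to 3.55 to 16.2 CPM in WT and 22.8 to 47.7 CPM in KO tumours. By edgeR 0 of these 5 markers were called, where 8.78% of all genes tested rose. At an unadjusted p under 0.05 there were 3 higher, and DESeq2 called 2 higher. The part of growth rate, mitochondrial share and cell makeup in the values of the sterol genes was not tested.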

How the data were processed

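Poly(A) RNA was sequenced from 9 libraries with unique molecular identifiers, by which duplicates were removed, per the labels' protocols. The submitters' processing notes name STAR 2.5.2b, Subread 1.5.2 with featureCounts, fastp 0.23.1, DESeq2 and the build GRCm38, without their roles. The deposited tables used here hold raw counts per Ensembl gene, 1 table per setting, made by the authors. Which annotation release and strand setting were used, and how shared reads were handled, is not stated in the sources used here. Deposited normalized and rlog tables were not used.

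Symbols were matched to Ensembl identifiers with GENCODE M21 (GRCm38). Low genes were removed with filterByExpr (count of 10, total of 15) in the libraries compared. The rest were scaled by TMM and entered the quasi-likelihood F test (edgeR 4.0.16, R 4.3.3), with Benjamini-Hochberg adjustment over all genes tested and a threshold of 0.05. Genotypes were compared within culture (4 libraries) and within tumours (5 libraries). The difference of these effects, and tumours against culture in each line, came from 1 fit of 9 libraries. Log2 fold changes use a prior count of 0.125. An SE is the log2 fold change over the square root of F. For a group with 0 counts a ratio to a floor of 3 counts is given, which covers the counting error of that group only. The p-values set a difference between groups against the spread between replicates within groups. They do not cover the spread between lines, since each genotype is 1 line. The script was tested on simulated data.

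The members, the 8 other gene lists and the marker lists were chosen with earlier results of these data known. All 28 members, Itga2, and up to 4 genes of each other list with the smallest p in a comparison were to be named; genes named beyond that rule (Acat3, Cyb5b, Npc2, Gramd1a, Krt18 and members of short lists) complete a count or a check. Alternatives were RLE scaling or library totals, no filter, a minimum of 1 CPM in each library of some group, DESeq2 1.42.0, 1 fit of 9 libraries, the replicate number as a block, and each library left out in turn.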

Additional observations from a re-analysis of the deposited data

Results flagged for a closer look

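For 20 of the 28 members the effect of the knockout differed between tumours and culture by the interaction test of edgeR (Benjamini-Hochberg adjusted p under 0.05). Each time the log2 fold change of KO against WT was higher in tumours, that is less negative or positive. The log2 differences in the mevalonate arm were 2.90 for Acat2, 1.49 for Hmgcs1, 1.70 for Mvk, 1.43 for Pmvk, 1.83 for Mvd, 1.71 for Idi1 and 2.11 for Fdps. From squalene to lanosterol they were 2.30 for Fdft1, 1.15 for Sqle and 0.99 for Lss. In the last arm they were 1.45 for Cyp51, 2.39 for Tm7sf2, 1.45 for Msmo1, 1.68 for Nsdhl, 1.29 for Ebp, 1.01 for Sc5d and 1.07 for Dhcr7. Outside the enzymes they were 2.21 for Insig1, 1.19 for Stard4 and 6.14 for Abcg1. The value of Abcg1 depends on the prior count, since the KO cultures had 0 counts of it, and it is no bound. Of these 20, Tm7sf2 was called in opposite directions in the 2 settings, and Ebp was called higher in KO tumours without a call in culture.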

How the results depend on the processing

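In culture the count of members called was 21, and 19 to 21 with each library left out. In tumours it was 4 members, and 8 in 1 fit of 9 libraries, 7 by DESeq2 and 0 to 5 with a library left out. For the difference it was 20, and 10 to 21 with a library left out. All genes called numbered 3461 in culture (2130 to 2985 with a library left out), 3206 in tumours (1171 to 4143) and 955 for the difference (1625 by DESeq2, 1875 without a filter, 288 to 1651 with a library left out). With the replicate number as a block the counts were 7587 genes and 23 members in culture, and 1428 genes and 0 members in tumours. The labels do not say that the numbers pair the samples. Same-numbered deviations from the group means correlated at 0.55 in culture, and at -0.00245 and 0.0367 in tumours. The culture figure is 1 value, since with 2 libraries per group the deviations of the replicates mirror each other. These values do not settle whether the numbers pair the samples. Under scaling by library totals Stard4 in WT tumours against WT culture changed sign, from -0.11 to 0.37 (adjusted p = 0.0361, edgeR). The causes were not tested. Of the 28 members, 10 kept their call for the difference in all 14 alternatives and 19 kept theirs in culture in all 11; none of the 4 tumour calls held in all 12. Few libraries per group, 1 line per genotype, and counts near 0 for Abca1, Abcg1 and Mylip in culture limit the precision. Replicates differed by more than counting noise in every pair, with a chi-square per gene of 6 between WT tumours 1 and 2 and 23 to 39.2 in the other pairs.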
